A study of Mus musculus with 22 samples.

Results

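The genes described here are Sele, Selp, Cdh5 and Ptprb, which mark activated endothelium and the junctions between endothelial cells. They were taken by name and are 4 of the 655 endogenous genes of a mouse myeloid panel, in RNA from tumour isolates enriched for G-MDSCs, the granulocytic kind of myeloid-derived suppressor cell, which resembles a neutrophil and can hold T cells in check. The tumours came from NT2.5, a single line derived from a spontaneous mammary tumour, with 50000 cells placed in the mammary fat pad of female FVB-Neu-N mice aged 7 to 8 weeks. These mice carry a rat neu (HER2) transgene driven by a mouse mammary tumour virus promoter.

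Treatment started 3 days after implantation and ran for 3 weeks. All 4 treated groups received entinostat, an oral inhibitor of class I histone deacetylases, at 5 mg/kg each day. They were entinostat alone (4 samples), entinostat plus anti-PD-1 (4 samples), entinostat plus anti-CTLA-4 (4 samples) and entinostat with both antibodies, the triple combination (4 samples). Each antibody was dosed at 100 µg per mouse, and the vehicle group (6 samples) was given 0.5% methylcellulose and isotype antibodies. An anti-HER2 antibody was part of some experiments in this model and not of others, and the labels do not say which holds for these 22 samples. No group had an antibody without entinostat. The labels do not tie a sample to 1 animal, so p-values measure the spread between these samples, which may be technical.

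E-selectin (Sele) and P-selectin (Selp) are lectins on the surface of activated endothelium that slow passing leukocytes by binding their sugar-bearing ligands. P-selectin is held ready in storage granules of endothelial cells and platelets, while E-selectin is made after cytokines such as TNF and interleukin-1 act through NF-kB. VE-cadherin (Cdh5) holds endothelial cells to each other at adherens junctions. VE-PTP (Ptprb) is a receptor phosphatase that acts on VE-cadherin and on the angiopoietin receptor Tie2.

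In the RefSeq annotation of the mouse assembly GRCm38.p6, Sele spans chr1:164039614-164058487 and Selp spans chr1:164115264-164150026, with 56776 bases between the end of Sele and the start of Selp. Cdh5 spans chr8:104101613-104144504 and Ptprb spans chr10:116275502-116389538. The 2 selectins lie side by side, so the 250 bases before a start site of each, as given by RefSeq, are printed here for comparison. Whether Sele followed Selp more closely than it followed Ptprb, on another chromosome, depended on the measure. Spearman's rho was 0.965 for Sele with Selp and 0.971 for Sele with Ptprb. Pearson's r of the log2 levels was 0.961 and 0.958 in the same order, and 0.951 and 0.934 with each sample centred on its median. Both windows are on the plus strand, Sele at chr1:164047984-164048233 and Selp at chr1:164115014-164115263. Sele has several RefSeq transcripts, and its window lies inside the span above, before a transcript start that is not the start of the span. Capitals mark the matches to 4 short motifs.
Sele: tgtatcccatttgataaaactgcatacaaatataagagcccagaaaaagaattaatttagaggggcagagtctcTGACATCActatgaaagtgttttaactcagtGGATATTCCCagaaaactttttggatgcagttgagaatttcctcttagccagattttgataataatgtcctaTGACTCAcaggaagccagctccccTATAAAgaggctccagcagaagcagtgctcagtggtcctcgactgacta
Selp: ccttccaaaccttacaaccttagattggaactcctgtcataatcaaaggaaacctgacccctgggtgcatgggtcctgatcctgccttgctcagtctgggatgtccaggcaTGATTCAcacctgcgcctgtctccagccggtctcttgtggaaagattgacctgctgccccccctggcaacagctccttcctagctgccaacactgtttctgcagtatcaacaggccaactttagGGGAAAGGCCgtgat

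The motifs were searched on both strands, and no match overlapped another. The NF-kB pattern, GGGA then any 4 bases then CC, occurred in 17.6% of 32851 RefSeq windows of this length, and both selectins had it. In Sele the match GGATATTCCC was on the minus-strand reading, from -145 to -136 before the start, and in Selp GGGAAAGGCC lay from -15 to -6. The AP-1 pattern TGANTCA, present in 6.75% of the windows, was at -73 to -67 in Sele and at -139 to -133 in Selp. The pattern TGACNTCA of ATF factors (7.49% of windows) was found in Sele alone of the pair, at -176 to -169, as was a TATA box, TATAAA (12.4% of windows), at -49 to -44. A match describes the letters and shows no binding.

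Each value is a normalized count, read from the deposited table, in which a fluorescent barcode stands for 1 transcript. Depth differed widely between samples: recovered barcode counts ran from 23296 to 443846 per sample, and 1 barcode count was worth 0.400 to 9.78 normalized counts. A gene was taken as above background in a sample when it exceeded the mean plus 2 SD of that sample's 8 negative controls. The samples ran on 2 cartridges, the first with 3 vehicle samples, 1 of the triple combination and every sample of the entinostat and entinostat plus anti-PD-1 groups, and the second with the others. By lane, triple combination sample a lay among vehicle samples and vehicle sample 3 beside triple combination samples, against their labels' groups. In the table, entinostat plus anti-CTLA-4 and the triple combination each had a sample name that stood over 2 columns, and such columns are given the letters a and b. Ly6g, the antigen used for the selection, was above background in 1 of 22 samples (1.74 to 30.2 normalized counts), whereas S100a8, a neutrophil alarmin, ran from 1079 to 12607.

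The 4 endothelial genes were low to moderate in abundance. Sele was above background in 20 of 22 samples, Selp in 19, Cdh5 in 18 and Ptprb in 13. Raw signal was 7 to 114 barcode counts for Sele, 3 to 225 for Selp, 8 to 61 for Cdh5 and 4 to 47 for Ptprb, so counting error was large in the lowest samples. For the tests a gene needed a mean log2 level above 29.3 normalized counts in at least 1 group, and 420 genes met this. All 4 members passed, and in each case through treated groups, since none of them exceeded that limit in vehicle. Selp passed in all 4 treated groups, Sele and Cdh5 in 3, without entinostat plus anti-CTLA-4, and Ptprb in entinostat alone and the triple combination.

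E-selectin was highest after entinostat alone. In vehicle, Sele was 9.74, 72.9, 12.0, 29.5, 32.6 and 54.8 normalized counts in samples 1, 2, 3, 4, V1 and V2. In entinostat samples 1 to 4 it was 182.5, 123, 214.55 and 67.5, so that 3 of 4 exceeded the highest vehicle sample and sample 4 did not. With anti-PD-1 added it was 74.8, 81.8, 38.4 and 76.4, a narrow range of which 3 samples lay just above the highest vehicle sample. With anti-CTLA-4 added it was 120 in sample a and 22.8, 8.12 and 14.7 in samples 1, b and 3. Only sample a of that group exceeded the vehicle mean. In the triple combination it was 43.9 and 35.5 in samples a and b and 176 and 120 in samples 2 and 4, the last 2 above all vehicle samples. Sample 2 of the triple combination had the lowest depth, and its Sele value rested on 18 barcode counts. The means were 35.3 ± 24.6 in vehicle (SD, n = 6), 147 ± 65.1 in entinostat (SD, n = 4), 67.8 ± 19.9 with anti-PD-1 (SD, n = 4), 41.3 ± 52.6 with anti-CTLA-4 (SD, n = 4) and 93.8 ± 66.6 in the triple combination (SD, n = 4).

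P-selectin had the widest range of the members. Vehicle samples 1, 2, 3, 4, V1 and V2 held 2.66, 77.6, 6.86, 30.3, 28.7 and 88.3 normalized counts of Selp. Samples 1 and 3, with 3 and 4 barcode counts, were not above background. Entinostat samples 1 to 4 held 399, 209, 294 and 54.0, and again all but sample 4 exceeded every vehicle sample. Entinostat plus anti-PD-1 samples 1 to 4 held 86.8, 133, 53.7 and 89.4, overlapping vehicle. Entinostat plus anti-CTLA-4 gave 220 in sample a, and 40.4, 7.54 and 14.7 in samples 1, b and 3, a gap between 1 sample and the others as for Sele. The triple combination gave 55.5, 21.98, 156 and 188 in samples a, b, 2 and 4, of which samples 2 and 4 exceeded every vehicle sample. Mean levels were 39.1 ± 35.9 in vehicle (SD, n = 6), 239 ± 146 in entinostat, 90.7 ± 32.5 with anti-PD-1, 70.7 ± 101 with anti-CTLA-4 and 106 ± 79.3 in the triple combination (SD, n = 4 each).

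VE-cadherin showed the same high samples over a smaller range. Cdh5 in vehicle was 7.08, 71.7, 17.2, 17.3, 17.1 and 50.2 normalized counts in samples 1, 2, 3, 4, V1 and V2. It was 86.8, 104, 90.3 and 22.5 in entinostat samples 1 to 4, and sample 4 was below its own background. It was 31.4, 49.6, 34.5 and 53.3 with anti-PD-1, inside the vehicle range in every sample. It was 79.8 in sample a with anti-CTLA-4 and 12.4, 5.22 and 6.75 in samples 1, b and 3. It was 20.1, 16.9, 88.0 and 82.7 in triple combination samples a, b, 2 and 4. Samples b and 3 with anti-CTLA-4 lay below the lowest vehicle sample. Means were 30.1 ± 25.2 in vehicle (SD, n = 6), 76.0 ± 36.5 in entinostat, 42.2 ± 10.9 with anti-PD-1, 26.0 ± 36.0 with anti-CTLA-4 and 51.9 ± 38.7 in the triple combination (SD, n = 4 each).

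VE-PTP was the least often detected. Ptprb in vehicle was 3.54, 28.2, 6.86, 7.80, 6.99 and 39.6 normalized counts in samples 1, 2, 3, 4, V1 and V2, and 4 of these 6 were not above background. It was 83.3, 55.7, 77.2 and 18.0 in entinostat samples 1 to 4, with sample 4 not above background. It was 29.9, 40.9, 19.2 and 25.9 with anti-PD-1, all above background and 1 of them above every vehicle sample. It was 41.4 in sample a with anti-CTLA-4 against 9.59, 4.06 and 4.30 in samples 1, b and 3, the last 2 not above background. It was 12.2, 16.9, 68.4 and 53.7 in triple combination samples a, b, 2 and 4, and the value of sample 2 rested on 7 barcode counts and did not clear that sample's background. Means were 15.5 ± 14.8 in vehicle (SD, n = 6), 58.5 ± 29.5 in entinostat, 29.0 ± 9.08 with anti-PD-1, 14.8 ± 17.9 with anti-CTLA-4 and 37.8 ± 27.6 in the triple combination (SD, n = 4 each).

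**Figure D1:**
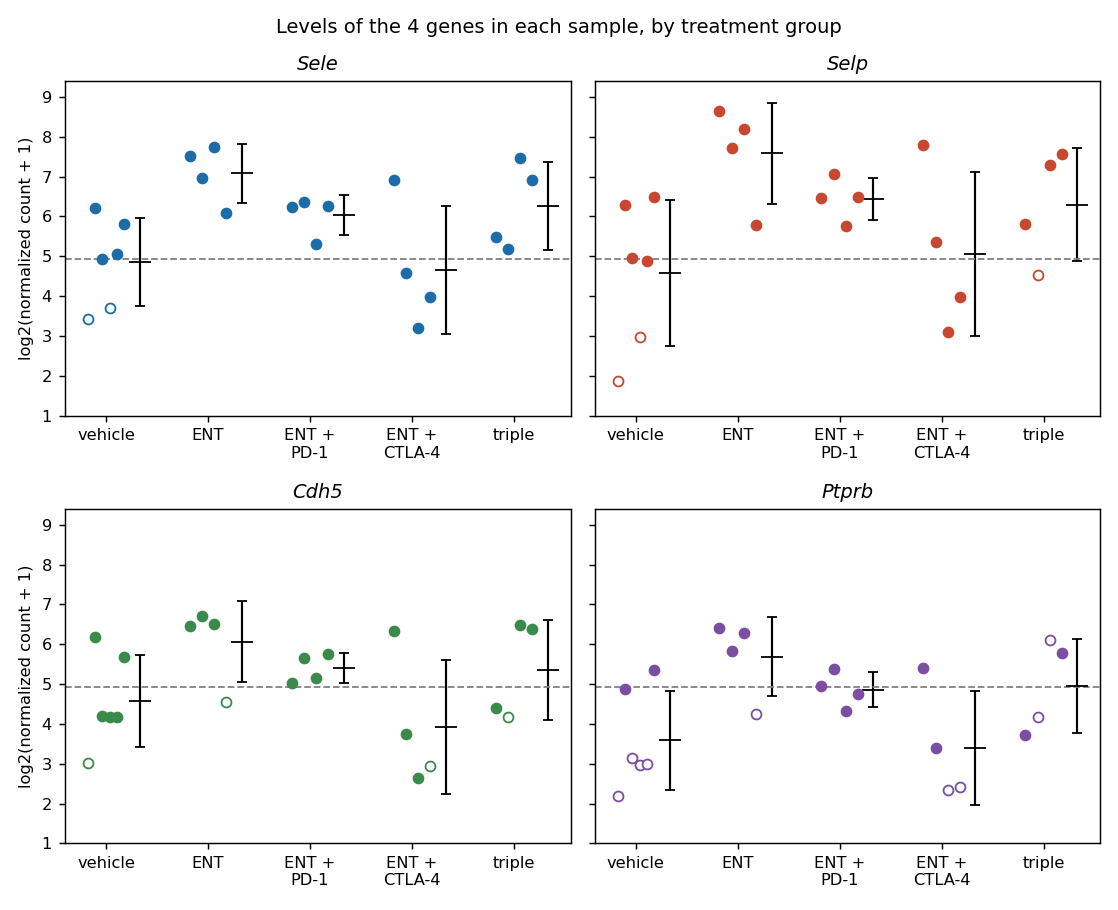
Level of each gene on the log2(normalized count + 1) scale in every sample, by group, with the group mean and SD beside the points. Open points are not above their own sample's background, and the dashed line is the limit of 29.3 normalized counts used for the tests; in each panel 3 of the 4 entinostat samples lie above all vehicle samples and 1 of the 4 entinostat plus anti-CTLA-4 samples stands far above the other 3.

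Entinostat alone was compared with vehicle for what the drug does to these isolates. Sele, Selp and Ptprb rose and Cdh5 missed the threshold. On the log2(normalized count + 1) scale, which understates changes of low genes, Selp was 3.00 ± 0.95 higher (SE, adjusted p = 0.0200), the largest increase of the 420 genes tested. Sele was 2.22 ± 0.66 higher (adjusted p = 0.0161) and Ptprb 2.11 ± 0.69 (adjusted p = 0.0219), ranks 6 and 10 by size. Cdh5 differed by 1.49 ± 0.72 (adjusted p = 0.0981), with a 95% interval from -0.01 to 2.99. The tests are limma with Benjamini-Hochberg adjustment over 420 genes, two-sided. The 3 calls among 4 members stand against a background in which 36.2% of all tested genes were called higher and 3.81% lower. Centred on each sample's median, as given below for the members, 95 genes were higher and 81 lower, against 152 and 16 as deposited. The median difference of the members was 2.17, against 0.50 over all tested genes. All 4 members passed the filter through treated groups and not through vehicle, so a rise over vehicle in some treated group was built in. Calls, ranks and medians of the members against vehicle carry this limit, here and below.

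These calls had few samples behind them. Sele was above the vehicle mean in 4 of 4 entinostat samples, Selp and Ptprb likewise, and Cdh5 in 3 of 4. Exact two-sided permutation tests over the 10 samples gave p = 0.0190 for Sele, 0.0286 for Selp, 0.0381 for Ptprb and 0.0571 for Cdh5, with 0.00952 the smallest p possible, and 0.152 for each after adjustment over the 16 tests of members against vehicle. Sele lost its call without entinostat sample 3 (2.00, adjusted p = 0.0600), and Selp without entinostat sample 1, 2 or 3 (adjusted p = 0.0518 to 0.0630 over those 3). Ptprb lost its call without vehicle sample 1 (1.83, adjusted p = 0.0512) or entinostat sample 1, 2 or 3 (adjusted p = 0.0577 to 0.0751). Cdh5 was called without entinostat sample 4 (1.99, adjusted p = 0.0404), vehicle sample 2 (1.81, 0.0426) or entinostat plus anti-CTLA-4 sample a (1.49, 0.0485), limma throughout.

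The cartridge and the background also moved with the groups. Within cartridge 1, which held 3 vehicle and all entinostat samples, the differences were 2.23 for Sele (adjusted p = 0.0301), 3.21 for Selp (0.0344), 2.29 for Ptprb (0.0321) and 1.60 for Cdh5 (0.102, limma). The mean negative control was worth 7.31 to 16.5 normalized counts in entinostat samples and 4.66 to 7.04 in vehicle. With it subtracted from each sample, the differences were 2.52 for Sele (adjusted p = 0.0224), 3.40 for Selp (0.0279), 2.45 for Ptprb (0.0561) and 1.65 for Cdh5 (0.194). The median endogenous gene was also higher, 47.2 to 67.8 normalized counts against 27.4 to 51.7 in vehicle. With each sample centred on its median, Sele was 1.69 higher (adjusted p = 0.0237), Selp 2.46 (0.0252), Ptprb 1.57 (0.0341) and Cdh5 0.95 (0.161). The part of cell composition in these differences was not tested, and in such bulk isolates a larger share of cells of a type and more RNA per cell cannot be told apart.

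No member passed the threshold after entinostat plus anti-PD-1, where 20.5% of all tested genes were called higher than in vehicle and 1.43% lower. The differences were 1.87 ± 0.95 for Selp, 1.27 ± 0.69 for Ptprb, 1.19 ± 0.66 for Sele and 0.83 ± 0.72 for Cdh5 (SE, limma adjusted p = 0.165 to 0.437). All 4 members were above the vehicle mean in 4 of 4 samples of this group. Within cartridge 1 the differences were 2.07, 1.46, 1.19 and 0.93 in the same order (adjusted p = 0.153 to 0.413), and 0 genes of the panel were called there. The members' median was 1.23, against 0.29 over all tested genes.

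After entinostat plus anti-CTLA-4 the members were near their vehicle levels, in a comparison in which 0% of all tested genes were called by limma and 6 of 420 had an unadjusted p under 0.05. Selp differed by 0.48 ± 0.95, Sele by -0.19 ± 0.66, Ptprb by -0.20 ± 0.69 and Cdh5 by -0.65 ± 0.72 (SE, limma adjusted p = 0.960 to 0.977). The intervals were wide, from -1.50 to 2.46 for Selp and from -1.58 to 1.19 for Sele. The direction depended on single libraries: without sample a of this group Selp was at -0.43, and without sample b Sele was at 0.30. Within cartridge 2 the values were 0.27 for Selp, -0.20 for Sele, -0.38 for Ptprb and -0.76 for Cdh5 (adjusted p = 0.994 for each).

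The triple combination also gave no call, for the members or any tested gene (0% called, 59 of 420 with an unadjusted p under 0.05 in limma). Selp had the largest positive difference of the 420 here, as it also had for entinostat plus anti-CTLA-4 against vehicle, at 0.48 (limma adjusted p = 0.971). In the triple combination Selp was at 1.72 ± 0.95, Sele at 1.41 ± 0.66, Ptprb at 1.36 ± 0.69 and Cdh5 at 0.78 ± 0.72 (SE, adjusted p = 0.338 to 0.490). Within cartridge 2, 3 triple combination against 3 vehicle samples, the values were 1.68, 1.67, 1.58 and 1.00 (adjusted p = 0.407 to 0.535). Without vehicle sample 3 and triple combination sample a, whose lanes went against their labels, they were 1.56, 1.44, 1.65 and 1.02 (adjusted p = 0.168 to 0.359). These 4 comparisons share the vehicle samples, so they are not independent of each other.

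**Figure D2:**
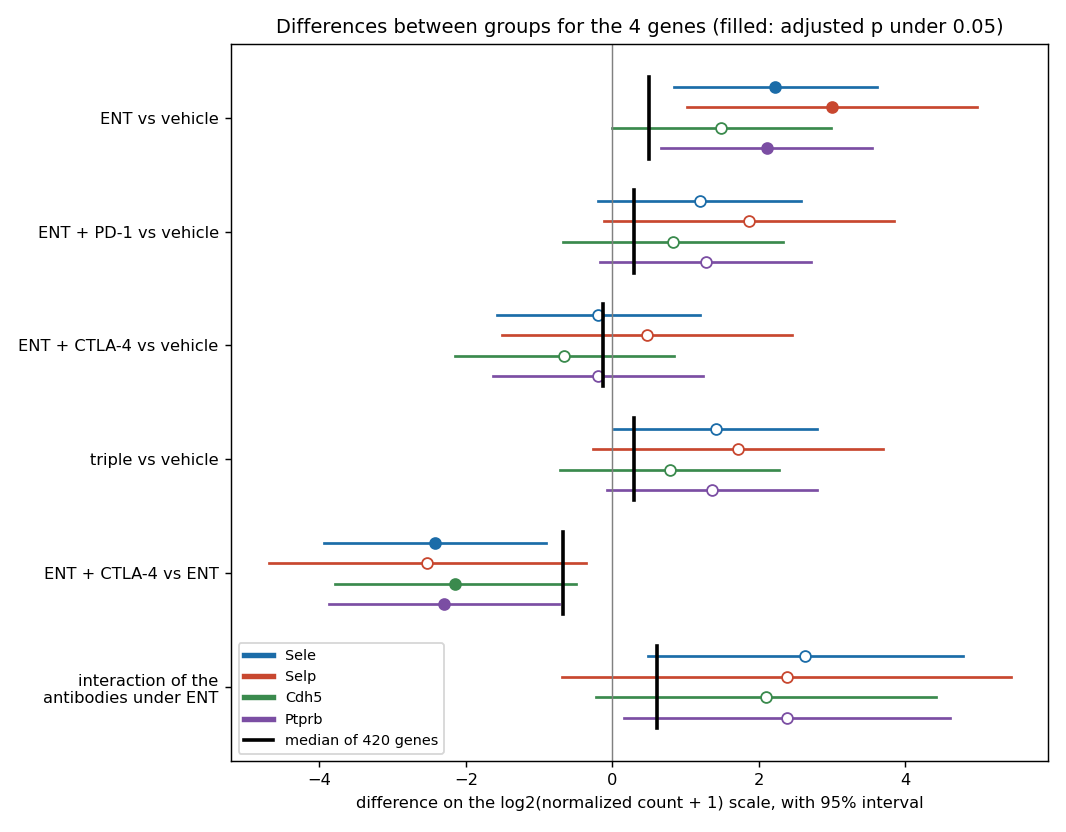
Differences between groups for each gene on the log2(normalized count + 1) scale with 95% intervals from limma, filled where the adjusted p is under 0.05, and the median of the 420 tested genes as a black bar. Of the members, 3 are filled for entinostat against vehicle and 3 for entinostat plus anti-CTLA-4 against entinostat, and every member's interval for the other 3 vehicle comparisons and the interaction is wide.

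Among the entinostat groups, the 2 endothelial junction genes and Sele were lower when anti-CTLA-4 was added to entinostat. Against entinostat alone, Sele fell by 2.42 ± 0.73 on the log2 scale (SE, adjusted p = 0.0127), Ptprb by 2.30 ± 0.75 (0.0192) and Cdh5 by 2.14 ± 0.78 (0.0330, limma). Selp differed by -2.53 ± 1.04, the largest size of the members, with an adjusted p of 0.0508. In this comparison 42.6% of all tested genes were called lower and 5.71% higher (179 and 24 genes, or 104 and 121 with each sample centred on its median), and the members' median was -2.36 against -0.67 over all tested genes. For each member, samples 1, b and 3 with anti-CTLA-4 were below the lowest entinostat sample, and sample a lay within the entinostat range. Without sample a the differences were -3.17 for Sele, -2.97 for Ptprb, -2.95 for Cdh5 and -3.44 for Selp (adjusted p = 0.000516 to 0.00622), so that all 4 were called. The members' own values stood apart in sample a, so these calls follow in part from leaving it out. The share of all tested genes called without it is not given here.

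The call of Sele was lost without anti-CTLA-4 sample b (-1.93, adjusted p = 0.0577). That of Ptprb was lost without entinostat sample 1 or 3 or anti-CTLA-4 sample b or 3 (adjusted p = 0.0527 to 0.0733), and that of Cdh5 without any 1 of entinostat samples 1, 2 and 3 and anti-CTLA-4 samples 1, b and 3 (adjusted p = 0.0696 to 0.119). These groups ran on separate cartridges, so no value within a cartridge exists. With the cartridge as a term, which vehicle and triple combination samples on both link, Sele was at -2.77 (adjusted p = 0.0403), Ptprb at -3.10 (0.0293), Cdh5 at -2.71 (0.0544) and Selp at -3.01 (0.101). With negative controls subtracted, Ptprb (-2.29, 0.0971) and Cdh5 (-2.21, 0.113) were not called. With each sample centred on its median, Sele was at -1.70 (adjusted p = 0.0219), Ptprb at -1.58 (0.0363), Selp at -1.81 (0.0862) and Cdh5 at -1.43 (0.0555).

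No member was called as deposited in the other 5 differences between entinostat groups. Entinostat plus anti-PD-1 lay below entinostat alone by 0.66 to 1.14 for the members (limma adjusted p = 0.971 for each, 0% of tested genes called, 7 of 420 with an unadjusted p under 0.05). The triple combination differed from entinostat alone by -1.28 for Selp, -0.81 for Sele, -0.75 for Ptprb and -0.70 for Cdh5 (adjusted p = 0.563 to 0.647, 0% called, 53 of 420 with an unadjusted p under 0.05). It differed from entinostat plus anti-PD-1 by -0.15 to 0.22 (adjusted p = 0.996 to 0.998, 0% called, 33 of 420 with an unadjusted p under 0.05), with intervals as wide as -2.32 to 2.02 for Selp. Against entinostat plus anti-CTLA-4 it was at 1.24 to 1.60 (adjusted p = 0.170 to 0.380, 0% called, 115 of 420 with an unadjusted p under 0.05), and within cartridge 2 at 1.40 to 1.96 (adjusted p = 0.185 to 0.423). Entinostat plus anti-PD-1 against entinostat plus anti-CTLA-4 gave 1.38 to 1.48 (adjusted p = 0.158 to 0.315), where 29.5% of tested genes were called higher and 1.43% lower (124 and 6 genes, or 99 and 29 centred). Those groups shared no cartridge, so no value within a cartridge exists for them. Without anti-CTLA-4 sample a, Sele, Cdh5 and Ptprb were called in both of the last 2 differences (2.13 to 2.35, limma adjusted p = 0.00938 to 0.0195). The counts over all tested genes without that sample are given further on.

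By mean log2 level the groups ran from entinostat alone at the top to vehicle and entinostat plus anti-CTLA-4 at the bottom for all 4 genes. For Sele the order was entinostat (7.08), triple combination (6.27), entinostat plus anti-PD-1 (6.05), vehicle (4.86) and entinostat plus anti-CTLA-4 (4.66). Ptprb had the same order, from 5.69 to 3.39. Cdh5 ran from 6.06 in entinostat to 3.92 with anti-CTLA-4, with entinostat plus anti-PD-1 (5.40) just above the triple combination (5.36). For Selp, entinostat (7.58) was followed by entinostat plus anti-PD-1 (6.45), the triple combination (6.30), then entinostat plus anti-CTLA-4 (5.06), with vehicle last (4.58). No pair of neighbours in these orders passed the threshold, which does not show that their levels are alike.

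The 4 entinostat groups form a factorial layout of the antibodies, and the effects were averaged over it. Averaged over anti-PD-1, 30% of all tested genes were called lower with anti-CTLA-4 and 2.14% higher (126 and 9 genes, or 102 and 77 centred), and the members were at -1.34 ± 0.73 for Selp, -1.11 ± 0.53 for Ptprb, -1.10 ± 0.51 for Sele and -1.09 ± 0.55 for Cdh5 (SE, limma adjusted p = 0.102 to 0.165), none of them called. With sample a of entinostat plus anti-CTLA-4 left out, all 4 were called (-1.44 to -1.79, adjusted p = 0.0103 to 0.0340). The groups without anti-CTLA-4 ran wholly on cartridge 1, and those with it on cartridge 2 but for 1 triple combination sample. With the cartridge as a term, 0 genes of the panel were called for this average effect of anti-CTLA-4. Averaged over anti-CTLA-4, anti-PD-1 gave differences of 0.05 to 0.39 (adjusted p = 0.834 to 0.977, 0% of tested genes called, 12 of 420 with an unadjusted p under 0.05). The interaction, the effect of anti-PD-1 with anti-CTLA-4 minus that without, was 2.64 ± 1.03 for Sele, 2.39 ± 1.06 for Ptprb, 2.38 ± 1.47 for Selp and 2.10 ± 1.11 for Cdh5 (SE, adjusted p = 0.250 to 0.281, 0% of tested genes called, 81 of 420 with an unadjusted p under 0.05). By size of interaction Sele was at rank 3 of the 420. Without sample a of entinostat plus anti-CTLA-4 it was called for Sele (3.39, adjusted p = 0.0154), Ptprb (3.06, 0.0289) and Cdh5 (2.91, 0.0313) and not for Selp (3.29, 0.0620). The panel's counts without that sample, for the interaction and the average effect of anti-CTLA-4, are given further on.

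The 4 genes moved together from sample to sample. The same 6 samples were the highest for every member: entinostat samples 1, 2 and 3, entinostat plus anti-CTLA-4 sample a and triple combination samples 2 and 4. The 4 lowest samples of each member had 3 in common: sample 1 of vehicle and samples b and 3 of entinostat plus anti-CTLA-4. Over 22 samples, Pearson's r of the log2 levels was 0.911 to 0.961 over the 6 pairs of members and Spearman's rho 0.925 to 0.971. Each had p = 1e-05 in a permutation test (100000 permutations, two-sided, adjusted over the 6 pairs), the smallest they can give. Its null was no correlation over freely shuffled samples, while the median r of all tested genes with a member was 0.555 to 0.664. So this p does not set the members apart from other genes. Without the 2 samples farthest from the median of the first gene, r between members was 0.905 to 0.954.

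The members also moved together within the groups. With each group's mean removed, r was 0.918 to 0.959, and in the 6 vehicle samples alone it was 0.869 to 0.980. It was 0.910 to 0.973 in the 12 samples of cartridge 1 and 0.907 to 0.961 in the 10 of cartridge 2. With each sample centred on the median of the tested genes, r was 0.882 to 0.951. The samples share a scaling, and the members rose with each sample's median endogenous level (r = 0.758 to 0.901) and with the worth of 1 barcode count (r = 0.497 to 0.694, both over the 22 samples). The part of either in the shared pattern was not tested beyond the centring.

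**Figure D3:**
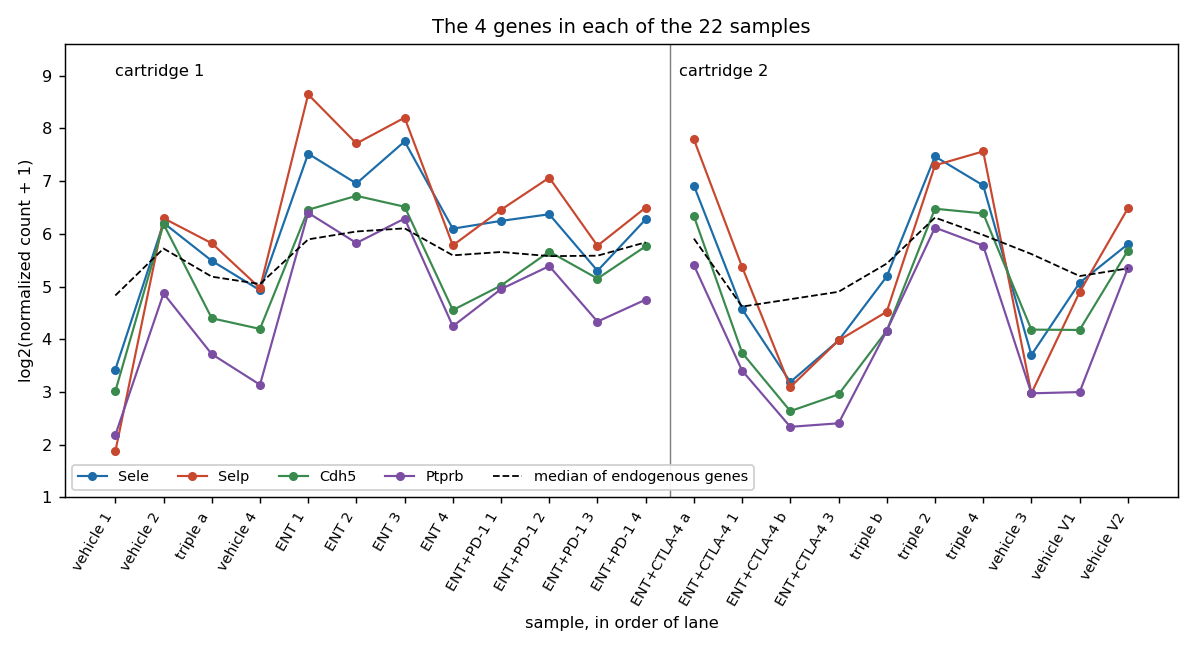
The 4 genes in each sample on the log2(normalized count + 1) scale, in the order of lanes on the 2 cartridges, with the median of the endogenous genes dashed. Heights are not compared between genes, whose probes differ; the 4 lines rise and fall in the same samples, with peaks at entinostat samples 1 to 3, entinostat plus anti-CTLA-4 sample a and triple combination samples 2 and 4.

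Spread within groups was large for these genes. The residual SD of log2 levels was 1.55 for Selp, 1.17 for Cdh5, 1.12 for Ptprb and 1.08 for Sele, against a median of 0.43 over the 420 tested genes, with Selp at rank 3. Differences between samples of 1 group made up 60.7% of the log2 variance for Selp, 67.1% for Cdh5, 56.2% for Ptprb and 52.5% for Sele. The median gene had 62.7%. Entinostat plus anti-PD-1 was the most uniform group, with a highest sample 1.70 times the lowest for Cdh5 and 2.47 times for Selp.

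The genes whose log2 levels were most like the members' over the 22 samples were few and recurrent, and are given as a description. Besides other members, the 5 nearest genes of Sele held Cav1, Fabp4 and Il6 (r = 0.947, 0.939 and 0.936). Those of Selp held Il6, Fabp4 and Cd34 (0.962, 0.949 and 0.922). Those of Cdh5 held Thbd, Col15a1, Cav1 and Cd34 (0.975, 0.974, 0.972 and 0.960), and those of Ptprb held Cav1, Il6 and Cd34 (0.971, 0.947 and 0.946). The median r of all tested genes with a member was 0.555 to 0.664, and 0.060 to 0.083 after median centring. After centring, Cav1, Fabp4, Il6, Cd34, Thbd and Col15a1 still had r of 0.850 to 0.958 with the 4 members.

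Cav1 encodes caveolin-1 of membrane caveolae, Thbd the thrombin receptor thrombomodulin, Col15a1 a basement membrane collagen, Fabp4 a fatty acid carrier, Cd34 a sialomucin that can carry selectin ligands and Il6 the cytokine interleukin-6. These 6 genes were chosen for levels that follow the members over the same samples, so their differences are given as a description, with no test. Thbd and Cd34 are also on gene lists described further on. For entinostat against vehicle Il6 differed by 2.74, Fabp4 by 2.45, Cd34 by 1.81, Thbd by 1.69, Col15a1 by 1.40 and Cav1 by 1.36 on the log2 scale. For entinostat plus anti-CTLA-4 against entinostat the values were -2.91 for Fabp4, -2.62 for Il6, -2.39 for Thbd, -2.15 for Cd34, -1.79 for Col15a1 and -1.65 for Cav1. Il6 was 49.3 ± 50.9 normalized counts in vehicle (SD, n = 6) and 264 ± 169 in entinostat (SD, n = 4), with overlap between the groups.

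**Figure D4:**
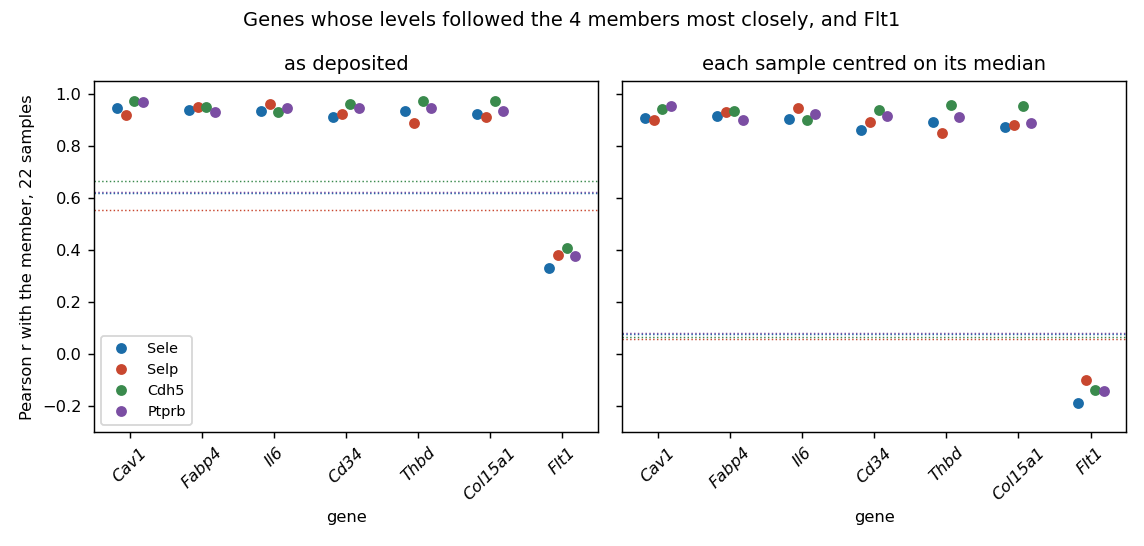
Pearson's r over 22 samples between each member and the genes nearest to them, with Flt1 added as another endothelial gene, as deposited and with each sample centred on its median; dotted lines give the median r of all tested genes. The 6 nearest genes stay between 0.850 and 0.958 after centring, while Flt1 is at 0.333 to 0.410 as deposited and -0.188 to -0.099 after centring.

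Not every endothelial gene followed. A list of 22 endothelial markers had 6 with values here, the 4 members plus Flt1 and Erg, and others such as Pecam1, Kdr and Tek were not analysed here. Flt1, which encodes VEGF receptor 1 and is made by some macrophages too, was above background in all 22 samples. It was 141 ± 50.2 normalized counts in vehicle (SD, n = 6), 129 ± 45.9 in entinostat, 92.6 ± 15.5 with anti-PD-1, 109 ± 27.0 with anti-CTLA-4 and 107 ± 33.4 in the triple combination (SD, n = 4 each). Its difference was -0.12 ± 0.28 for entinostat against vehicle (SE, limma adjusted p = 0.731) and -0.20 ± 0.31 for entinostat plus anti-CTLA-4 against entinostat (adjusted p = 0.584). With edgeR and TMM factors Flt1 was called lower with entinostat (-0.84, edgeR adjusted p = 0.0241), as it was with quantile normalization. For entinostat plus anti-PD-1 against vehicle it was at -0.54 ± 0.28 as deposited (SE, limma adjusted p = 0.181). There it was called lower with median centring, with quantile normalization and with edgeR and TMM factors. Erg, an endothelial transcription factor, was above background in 1 sample (1.55 to 24.8 normalized counts) and was not tested. Pf4, a platelet granule gene and 1 of 2 genes with values from a list of 9 platelet markers that also held Selp, was above background in 9 samples, at 4.57 to 37.6 normalized counts in vehicle, 6.75 to 51.1 in entinostat and 4.80 to 35.5 with anti-CTLA-4.

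Leukocyte markers changed in the same comparisons. Of 16 neutrophil markers, 13 had values and 9 were tested; all 9 rose with entinostat and all 9 were lower in entinostat plus anti-CTLA-4 than in entinostat (median 1.80 and -2.16). The summed level of the 13 was 5777 to 24590 normalized counts in vehicle, 20886 to 40630 in entinostat, 23367 to 30834 with anti-PD-1, 3454 to 21896 with anti-CTLA-4 and 15114 to 19348 in the triple combination. Of 12 pan-leukocyte markers, 6 were tested, and all 6 rose with entinostat and were lower with anti-CTLA-4 added (median 1.45 and -2.03). Over all tested genes, 36.2% were called higher with entinostat and 42.6% lower with anti-CTLA-4 added to entinostat. With each sample centred on its median, the neutrophil counts were the same and 5 of the 6 pan-leukocyte genes rose with entinostat. Their sum was 854 to 3740 in vehicle, 3357 to 5036 in entinostat and 623 to 3095 with anti-CTLA-4. No listed value was under 1, the lowest value of any gene in the table. The part of these cell markers in the members' differences was not tested.

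The leukocyte partners of the selectins also changed. Of 15 named ligands and partners 9 were tested. With entinostat 5 rose and none fell (median 1.31 against 0.50 over all tested genes), where 36.2% of all tested genes were called higher. Selplg, which encodes the P-selectin ligand PSGL-1, rose by 1.78 ± 0.40 (SE, limma adjusted p = 0.00769). The integrin subunits Itgal and Itgam rose by 1.61 ± 0.49 (adjusted p = 0.0176) and 1.26 ± 0.41 (0.0212). With anti-PD-1 added 4 of the 9 rose against vehicle (20.5% of all tested genes) and 0 of the 9 were called against entinostat. Within cartridge 1 that vehicle comparison had 0 genes of the panel called. In entinostat plus anti-CTLA-4 against entinostat 6 of the 9 were lower (42.6% of all tested genes), Selplg by 2.05 (0.00257). Centred on each sample's median, 5 of 9 rose and 2 fell with entinostat, and 6 fell and 2 rose with anti-CTLA-4 added. The centred counts over all tested genes were given with those comparisons above. Glg1, a Golgi protein known as an E-selectin ligand, was at 333 to 559 normalized counts in all samples. As deposited it was not called in those comparisons (-0.19 and 0.24), but after centring it was lower with entinostat (-0.73, adjusted p = 0.0324) and higher with anti-CTLA-4 added (0.96, 0.0103). With edgeR and TMM factors 2 of the 9 rose and 2 fell with entinostat, and Itgal (0.77, edgeR adjusted p = 0.0734) and Itgam (0.49, 0.1504) were not called.

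Inducers of the selectins were in part among the called genes. Of 13 named, 8 were tested and 5 rose with entinostat, where 36.2% of all tested genes were called higher. Il1b, for interleukin-1 beta, rose by 1.67 ± 0.40 (SE, limma adjusted p = 0.00796), Tnf by 1.55 ± 0.45 (0.0151) and the TNF receptors Tnfrsf1b by 0.93 ± 0.28 (0.0161) and Tnfrsf1a by 0.40 ± 0.13 (0.0255). The list's median was 1.07, against 0.50 over all tested genes. Centred on each sample's median, 2 of 8 rose, beside 95 of all 420 genes, Tnfrsf1b (0.39, adjusted p = 0.0826) was not called and Tnfrsf1a turned to -0.14 (0.409). For entinostat plus anti-PD-1, 4 of 8 were called higher than in vehicle (20.5% of all tested genes) and 0 of 8 against entinostat. Within cartridge 1 that vehicle comparison had 0 genes of the panel called. In entinostat plus anti-CTLA-4 against entinostat 6 of 8 were lower (42.6% of all tested genes), or 4 of 8 after centring (104 of all 420), Il1b by 2.02 (0.00277) and Tnf by 1.69 (0.0115).

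Of 8 other adhesion and surface molecules of activated endothelium, 4 were tested. Icam1, the ligand of leukocyte integrins, rose with entinostat by 1.64 ± 0.55 (SE, limma adjusted p = 0.0257). In entinostat plus anti-PD-1, Icam1 was 1.71 ± 0.55 above vehicle (0.0355), a comparison with 0 genes of the panel called within cartridge 1. Against entinostat, 0 of the 4 were called in that group. It was at 187 to 1655 normalized counts in all 22 samples and is made by leukocytes as well. In entinostat plus anti-CTLA-4 against entinostat, Icam1 fell by 1.84 (0.0197) and Thbd by 2.39 (0.0237), while Cx3cl1, a membrane-bound chemokine, was 0.54 higher (0.0272). Centred on each sample's median, Icam1 kept both calls (1.10 and -1.13) and Cx3cl1 was also called lower with entinostat (-0.92, adjusted p = 0.0243). With edgeR and TMM factors Icam1 lost both calls (0.75 and -0.86, edgeR adjusted p = 0.119 and 0.0942), as Thbd did with anti-CTLA-4 added (-1.38, 0.0646). Vcam1, a further cytokine-induced adhesion molecule, was above background in 7 samples and was not tested.

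Genes of a list of junction and Tie2 partners, which also held Vegfa and VEGF receptors, mostly did not pass. Of 16 named, 5 were tested, and with entinostat Vegfa alone rose, by 0.45 ± 0.17 (SE, limma adjusted p = 0.0479, with a list median of -0.08). Over all tested genes, 36.2% were called higher with entinostat and 42.6% lower with anti-CTLA-4 added to it. Centred on each sample's median, Vegfa turned to -0.09 (adjusted p = 0.684) and 2 of the 5 fell. In entinostat plus anti-CTLA-4 against entinostat, Vegfa fell by 0.84 (0.00320, and by 0.12 with an adjusted p of 0.591 after centring) and Angpt2, which encodes angiopoietin-2, a ligand of Tie2, by 1.75 (0.0170). Ctnnb1, for the beta-catenin that binds cadherin tails in many cell types, was at 1418 to 2361 normalized counts and F11r, a junctional adhesion molecule, at 450 to 828.6 in all samples, and as deposited neither was called in these comparisons. After centring both were lower with entinostat (Ctnnb1 -0.62, adjusted p = 0.0482; F11r -0.82, 0.0237), and F11r was higher with anti-CTLA-4 added (1.10, 0.00685).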

How the data were processed

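RNA from 22 G-MDSC isolates was measured with a mouse myeloid nCounter panel, per the labels' protocols. The deposited table holds normalized barcode signal. By its values, the authors multiplied each sample's barcode counts by 1 factor, with housekeeping genes nearly level across samples. The software is not given in the sources used here. Low values were whole multiples of 1 step per sample (100% of values up to 200 within 0.1 of a whole count), which gave the recovered barcode counts. Groups came from the labels, and the cartridge and lane from the column names.

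Values were taken as log2(normalized count + 1) and fitted with limma 3.58.1 in R 4.3.3 as 5 group means over all 22 samples. Tests covered genes with a group mean, in 1 group or more, above the negative controls' mean by over 2 of their SDs. P-values were two-sided, adjusted by Benjamini-Hochberg over 420 genes and called at 0.05. Every adjusted p in the text is from limma unless edgeR 4.0.16, whose quasi-likelihood test was run on the recovered counts, is named. The fits were tested on simulated data. Same-numbered samples of different groups did not deviate together (median r -0.07 over 24 pairs), so numbers were not taken as pairs. Exact permutation tests used scipy 1.17.1.

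Named genes were the 4 members, the 5 genes most correlated with each and, of each gene list, up to 4 called against vehicle with the smallest p. Named beyond that rule, after their values were seen, were Flt1, Erg, Pf4, Glg1, Vcam1, Ctnnb1, F11r and the genes given for the comparison of entinostat plus anti-CTLA-4 with entinostat. One gene that the rule names is not reported here. The members and lists were chosen with earlier results of these data known. Recounts of the lists under other scalings were added after seeing the data, as was 1 fit without a pair of samples. Intervals cover the spread between samples.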

Additional observations from a re-analysis of the deposited data

Results flagged for a closer look

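A gap test (Dixon's) was applied on the log2(normalized count + 1) scale to the highest and the lowest sample of each member in each group, 40 tests in all. It finds a sample set apart when its distance to the nearest other sample takes up more than 0.829 of the group's range for 4 samples. Chance alone would pick about 1 in 20 groups.

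Sele in entinostat plus anti-PD-1 had its lowest sample, sample 3, set apart by 0.883 of the log2 range. It was at 38.4 normalized counts against 74.8 to 81.8 in the other samples of the group. Cdh5 in entinostat had its lowest sample, sample 4, set apart by 0.878 of the log2 range. That sample was at 22.5 normalized counts against 86.8 to 104 in the other entinostat samples.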

How the results depend on the processing

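Log2 differences follow, with limma's adjusted p in parentheses where given. Over the 4 members and all comparisons, 1788 alternative values kept direction and call, 31 lost the call, 68 gained one and 64 changed sign; the cause of these changes was not tested. The sign changes lie in differences that were not called. Depth limits the lowest samples, where a member rested on as few as 3 barcode counts. Ptprb has no value with the filter at 3 SD, and groups that lie on separate cartridges have no value within one.

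For entinostat against vehicle, Ptprb was not called with negative controls subtracted (2.45) or with edgeR and TMM factors (1.31, edgeR adjusted p = 0.0600), and Cdh5 was called with sample weights (1.94). For entinostat plus anti-CTLA-4 against entinostat, Cdh5 lost its call with negative controls subtracted (-2.21), median centring (-1.43), quantile normalization (-0.91), only the groups compared (-2.14), the cartridge as a block (-2.71), edgeR with lane factors (-1.68) and edgeR with TMM factors (-1.16). Ptprb lost it with negative controls subtracted (-2.29), quantile normalization (-0.99) and only the groups compared (-2.30). Selp gained a call with pseudocount 10 (-2.11), the filter at 3 SD (-2.53) and sample weights (-3.71).

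Sample weights, which were lowest for entinostat plus anti-CTLA-4 sample a (0.108), also gave calls for entinostat plus anti-PD-1 against vehicle (Sele 1.06, Selp 1.60, Ptprb 1.45), for the anti-CTLA-4 main effect (Sele -1.82, Selp -2.38, Cdh5 -1.90, Ptprb -1.80) and for the interaction (Sele 2.98, Selp 2.67, Cdh5 2.55, Ptprb 2.81). They also gave calls for the triple combination against entinostat (Sele -1.58, Selp -2.49, Cdh5 -1.60), for it against entinostat plus anti-CTLA-4 (Sele 1.73, Cdh5 1.57, Ptprb 1.74) and for entinostat plus anti-PD-1 against entinostat plus anti-CTLA-4 (Sele 2.07, Selp 2.26, Cdh5 2.20, Ptprb 2.14).

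Differences near 0 changed sign. For entinostat plus anti-CTLA-4 against vehicle, Sele was at 0.0090 with negative controls subtracted, 0.17 with quantile normalization, 0.15 with edgeR and lane factors and 0.0973 without vehicle samples V1 and V2. Ptprb was at 0.16 with negative controls subtracted, 0.20 with quantile normalization and 0.0978 without V1 and V2, and Selp at -0.66 with sample weights. For the triple combination against entinostat plus anti-PD-1, Sele was at -0.34 with sample weights and -0.0427 with the cartridge as a block. Selp was at 0.14 with lane factors, 0.0935 with TMM factors and 0.0132 without vehicle sample 3 and triple combination sample a. Cdh5 was at 0.0194 with pseudocount 10, 0.0332 centred, 0.12 with lane factors, 0.0853 with TMM factors and 0.28 without vehicle sample 3 and triple combination sample a. Ptprb was at -0.0681 with negative controls subtracted, -0.40 with sample weights and -0.51 with the cartridge as a block. For the anti-PD-1 main effect, Sele was at -0.0279 with quantile normalization and -0.0008 with lane factors. Selp was at -0.0663 with pseudocount 10, -0.0184 with negative controls subtracted, -0.0360 centred, -0.21 with quantile normalization, -0.12 with sample weights, -0.42 with lane factors and -0.33 with TMM factors. Cdh5 was at -0.0128 and Ptprb at -0.0929 with quantile normalization.

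With the replicate block over the numbered samples, where the numbers do not pair the samples, Cdh5 was called for entinostat against vehicle (1.67, adjusted p = 0.0402), and so were Sele (3.47) and Ptprb (3.69) for the interaction and Ptprb (2.86) for the triple combination against entinostat plus anti-CTLA-4. Cdh5 (0.14) and Ptprb (0.17) changed sign in the triple combination against entinostat, as did Selp (0.62) and Cdh5 (0.80) against entinostat plus anti-PD-1.

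Leaving out 1 sample at a time gave, for entinostat against vehicle, 1.94 to 2.55 for Sele, 2.46 to 3.61 for Selp, 1.18 to 1.99 for Cdh5 and 1.83 to 2.59 for Ptprb. For entinostat plus anti-CTLA-4 against entinostat it gave -3.17 to -1.93 for Sele, -3.44 to -1.87 for Selp, -2.95 to -1.72 for Cdh5 and -2.97 to -1.95 for Ptprb. Against vehicle that group was at -0.94 to 0.30 for Sele, -0.43 to 1.13 for Selp and -0.87 to 0.16 for Ptprb. The anti-CTLA-4 main effect was -1.47 to -0.85 for Sele, -1.79 to -1.01 for Selp, -1.50 to -0.88 for Cdh5 and -1.44 to -0.90 for Ptprb, and the interaction 2.15 to 3.39 for Sele, 1.67 to 2.91 for Cdh5 and 2.00 to 3.06 for Ptprb. The triple combination against entinostat plus anti-PD-1 was -0.18 to 0.58 for Sele, -0.57 to 0.45 for Selp, -0.42 to 0.35 for Cdh5 and -0.30 to 0.50 for Ptprb, and the anti-PD-1 main effect -0.27 to 0.51 for Selp. Selp in entinostat plus anti-CTLA-4 against entinostat was called without vehicle sample 1, 2, 3 or V2, entinostat sample 4, entinostat plus anti-CTLA-4 sample a or triple combination sample b.

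A fit without both entinostat sample 4 and entinostat plus anti-CTLA-4 sample a was added after seeing the data. These samples were picked because the members' own values stood apart in them, so its calls follow in part from that choice and support nothing. It gave 1.99 for Cdh5 in entinostat against vehicle, -4.04 for Selp in entinostat plus anti-CTLA-4 against entinostat and -0.43 for Selp in that group against vehicle. The anti-CTLA-4 main effect was then -1.64 for Sele, -2.09 for Selp, -1.75 for Cdh5 and -1.68 for Ptprb, and the interaction 3.72 for Sele, 3.89 for Selp, 3.41 for Cdh5 and 3.54 for Ptprb, all called. Sele, Cdh5 and Ptprb were also called for the triple combination (2.35, 2.24 and 2.23) and entinostat plus anti-PD-1 (2.13, 2.29 and 2.14) against entinostat plus anti-CTLA-4.

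The number of genes called over the panel moved more. It was 168 for entinostat against vehicle, 54 without V1 and V2, 98 and 80 without entinostat sample 2 or 3 and 298 with sample weights. For entinostat plus anti-PD-1 against vehicle it was 92, 0 within cartridge 1 and without V1 and V2, 3 with the cartridge as a block, 33 with edgeR and lane factors, 43 with no filter, 226 with sample weights and 140 without vehicle sample 2. Omitting any 1 of vehicle samples 1 and 4, or of samples 1, 2 and 4 that had anti-PD-1, left 1 gene, omitting V1 alone 13 and V2 alone 7. It was 203 for entinostat plus anti-CTLA-4 against entinostat, 320 with sample weights, 136 with only the groups compared, 134 without entinostat sample 3, and 119 and 121 without entinostat plus anti-CTLA-4 sample 1 or b. For entinostat plus anti-PD-1 against entinostat plus anti-CTLA-4 it was 130, 0 with only the groups compared, 2 with the cartridge as a block, 288 with sample weights, 69 with edgeR and lane factors, and 207, 49 and 52 with sample a, 1 or b of entinostat plus anti-CTLA-4 left out. For the anti-CTLA-4 main effect it was 135, 0 with the cartridge as a block, 210 with edgeR and TMM factors, 290 with sample weights and 219 with sample a of entinostat plus anti-CTLA-4 left out. For comparisons with 0 calls, sample weights gave 18 for entinostat plus anti-CTLA-4 and 126 for the triple combination against vehicle, 106 for the triple combination against entinostat, 207 for it against entinostat plus anti-CTLA-4, 3 for entinostat plus anti-PD-1 against entinostat, 87 for the anti-PD-1 main effect and 239 for the interaction. With sample a of entinostat plus anti-CTLA-4 left out, 191 were called for the triple combination against that group and 152 for the interaction. Without triple combination sample a, 31 were called for the former. The replicate block gave 73 and 56 for these, and 6 for the triple combination against vehicle.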

Other observations

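Markers of other cell types differed by list. For entinostat against vehicle, 36.2% of all tested genes were called higher and 3.81% lower. Of the monocyte and macrophage markers, 6 were tested, and none was called for entinostat against vehicle. Their summed level was 424 to 2729 normalized counts in vehicle and 866 to 2713 in entinostat. Among the 4 fibroblast and matrix genes tested, Col3a1, a fibrillar collagen, rose with entinostat by 1.70 on the log2 scale (limma adjusted p = 0.0390) and Pdgfra, a growth factor receptor of mesenchymal cells, fell by 0.64 (0.0167). Cdh1, the E-cadherin of epithelial cells, fell by 0.41 (limma adjusted p = 0.0418) and lay between 717 and 1310 normalized counts over all samples. Centred on each sample's median, 1 of the 4 fibroblast and matrix genes was called lower and none higher, while Cdh1 was again called lower.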
